A study of Homo sapiens with 15 samples.

Results

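RVX208 at 5 uM was compared with DW71177 at 300 nM in MV4-11, a human cell line from acute myeloid leukemia with a KMT2A-AFF1 fusion and an internal tandem duplication in FLT3. The comparison took the 6 arrays whose titles name these compounds, 3 for each, out of 15 in the study. A further 3 arrays of cells given DMSO, the vehicle, served to show on which side of the untreated level a compound lay. The spread behind each standard error and p-value was estimated from all 15 arrays, the DMSO arrays included. All cells were treated for 24 h in triplicate wells, and total RNA was read on an Affymetrix whole-transcript array. The doses differ, so compound and dose cannot be told apart in any difference reported here.

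BET proteins hold acetylated histones through a pair of bromodomains and help the kinase complex P-TEFb release paused RNA polymerase. RVX208 (apabetalone) binds the second bromodomain of the pair more tightly than the first. DW71177, known here by its code name, is understood to prefer the first, and the comparison sets these contrasting preferences side by side. In leukemia cells, BET inhibitors are known for lowering MYC and genes of the myeloid lineage and for raising HEXIM1, the inhibitor of P-TEFb. Nothing on these arrays measures binding to either bromodomain.

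Levels are the deposited log2 signals, so a difference of 1 is a change of 2-fold. Differences are RVX208 minus DW71177, given with the standard error of limma's fit, and a gene was called at an adjusted p under 0.05. The 9 arrays had medians of 3.719 to 3.783. Across genes, arrays of the same compound correlated at 0.9924 to 0.9947 and arrays of different compounds at 0.9911 to 0.993. Of the 10 myeloid marker genes listed for the line, 7 were measured and 6 had a mean of at least 5 with RVX208, among them LYZ at 10.36. MPO, the peroxidase of myeloid granules, had a mean of 4.11 with each compound.

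The compounds differed in a minority of genes, mostly by less than 1.5-fold. Of 14812 genes, limma called 663 (4.48%), of which 400 (2.7%) were higher with RVX208 and 263 (1.78%) were lower. The median size of a called difference was 0.354, or 1.28-fold. A difference of at least 2-fold was reached by 10 genes that were higher with RVX208 and 1 that was lower, and one of at least 1.5-fold by 43 and 11. The 95% interval stayed inside 1.5-fold for 13683 genes (92.4%), although for a dim gene it does not bound the true fold. The count fell to 426 without DW71177 replicate 1 and to 348, 344 and 368 without RVX208 replicates 1, 2 and 3. The genes lower with RVX208 fell to between 110 and 173 whichever of the 6 arrays was left out, and 245 genes (175 higher and 70 lower) stayed called in all 6 of those fits. With only the 6 RVX208 and DW71177 arrays fitted, 75 genes were called, 10 of them lower. Testing only genes with a mean of at least 5 gave 1219. A DMSO mean under 5 was found for 8067 of the 14812 genes, so shares of all genes are not matched to the level of any gene list below.

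**Figure D1:**
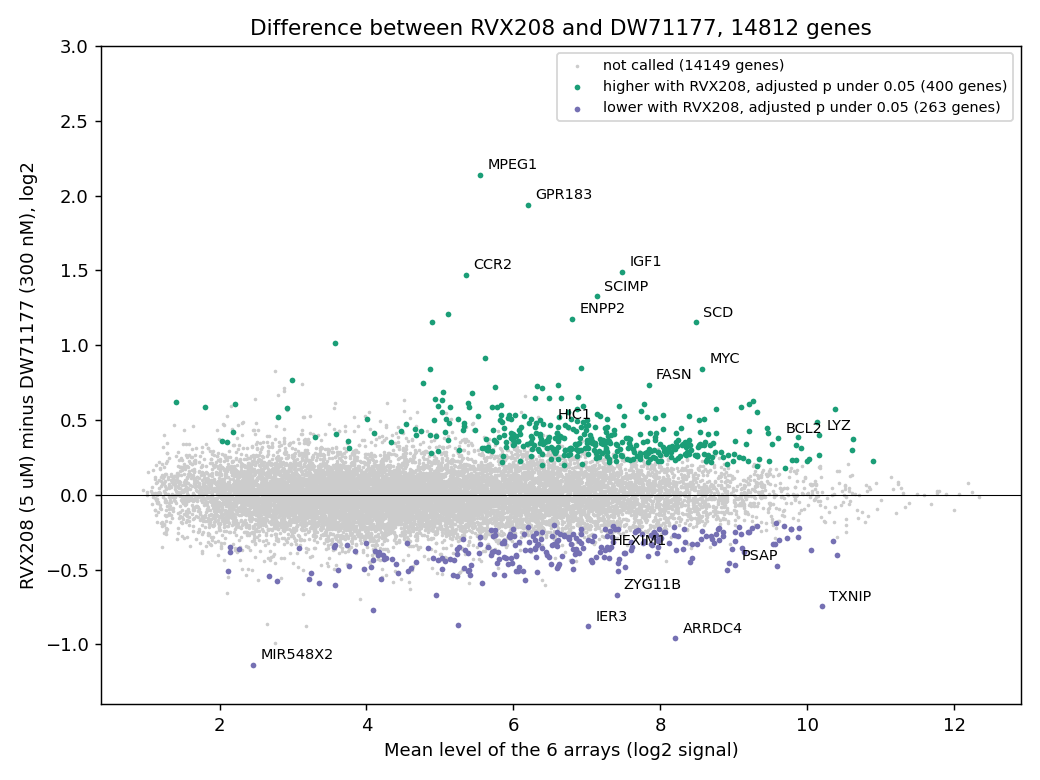
Each point is 1 of 14812 genes, with its mean level over the 6 arrays in log2 signal on the x axis and its difference, RVX208 minus DW71177 in log2, on the y axis. Green points are the 400 genes called higher with RVX208, violet points the 263 called lower and grey points the rest, and the difference is positive for MPEG1 (2.14) and MYC (0.84) and negative for ARRDC4 (-0.96) and TXNIP (-0.74).

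Among called genes the DW71177 mean was usually the one farther from DMSO. RVX208 and DW71177 lay on the same side of the DMSO mean with RVX208 nearer to it for 555 of the 663 (83.7%), made up of 351 of those higher with RVX208 and 204 of those lower. RVX208 was the farther one for 9, and the compounds lay on opposite sides for 99. Among the genes not called, 47.9% had RVX208 nearer on the same side. Both shifts were taken from the same 3 DMSO arrays, so these shares are a description with no test.

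MYC, the growth regulator that BET inhibitors are best known to lower, was higher with RVX208 than with DW71177. It read 8.97, 8.98 and 9.04 on the RVX208 arrays, 8.21, 8.08 and 8.16 on the DW71177 arrays, and 9.31, 9.29 and 9.35 on the DMSO arrays. The groups did not overlap, and every RVX208 array lay between the other groups. The difference was 0.84 ± 0.054 (95% interval 0.73 to 0.96, n = 3 and 3, limma adjusted p = 1.1e-06), or 1.79-fold.

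HEXIM1, whose product holds P-TEFb inactive, differed in the opposite direction. It read 7.05, 7.09 and 7.03 with RVX208, 7.51, 7.38 and 7.39 with DW71177, and 6.28, 6.28 and 6.39 with DMSO. Both compounds were above DMSO on every array, and all DW71177 arrays were above all RVX208 arrays. The difference of -0.37 ± 0.068 (limma adjusted p = 0.00783) was 1.29-fold, and a second, dimmer HEXIM1 feature differed by -0.22. HEXIM1 was the single called gene of 8 measured BET protein and P-TEFb genes, where 4.48% of all genes were called. The median difference of the 8 was 0.04. BRD2 differed by -0.08 ± 0.058 (95% interval -0.20 to 0.05) and BRD3 by 0.05 ± 0.065 (-0.09 to 0.19), and neither was called.

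Genes listed as lowered by BET inhibitors were mostly higher with RVX208. The list was chosen with earlier results of these data known, so its counts are a description. Of 15 measured, 10 were called higher and 0 lower, against 2.7% and 1.78% of all genes, with a median difference of 0.38 where all genes had -0.01. With only the 6 RVX208 and DW71177 arrays fitted (the 6 arrays alone), 6 were called. The list's median shift from DMSO was -0.48 with RVX208 and -0.88 with DW71177. The 10 were MPEG1, GPR183, CCR2, MYC, KIT, CD180, LYZ, FOSL1, BCL2 and CDK6. The largest difference among the 5 others was 0.23, for the cell-cycle factor gene E2F1, which was not called. CDK6, a cyclin-dependent kinase gene, differed by 0.29 ± 0.063 (limma adjusted p = 0.0193) and lost its call without DW71177 replicate 1 or 3 or RVX208 replicate 2 or 3.

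Genes listed as raised by BET inhibitors, a list chosen with the same knowledge, showed the opposite sign. Of 5 measured, 4 were lower with RVX208 (HEXIM1, TXNIP, ARRDC4 and ARRDC3) and 0 higher, against 1.78% and 2.7% of all genes. The median difference was -0.51, and 2 were called with the 6 arrays alone. Median shifts from DMSO were 0.76 with RVX208 and 1.34 with DW71177. The fifth, SLFN5, an interferon-inducible gene, differed by -0.44 ± 0.14 (limma adjusted p = 0.0885) and was not called.

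**Figure D2:**
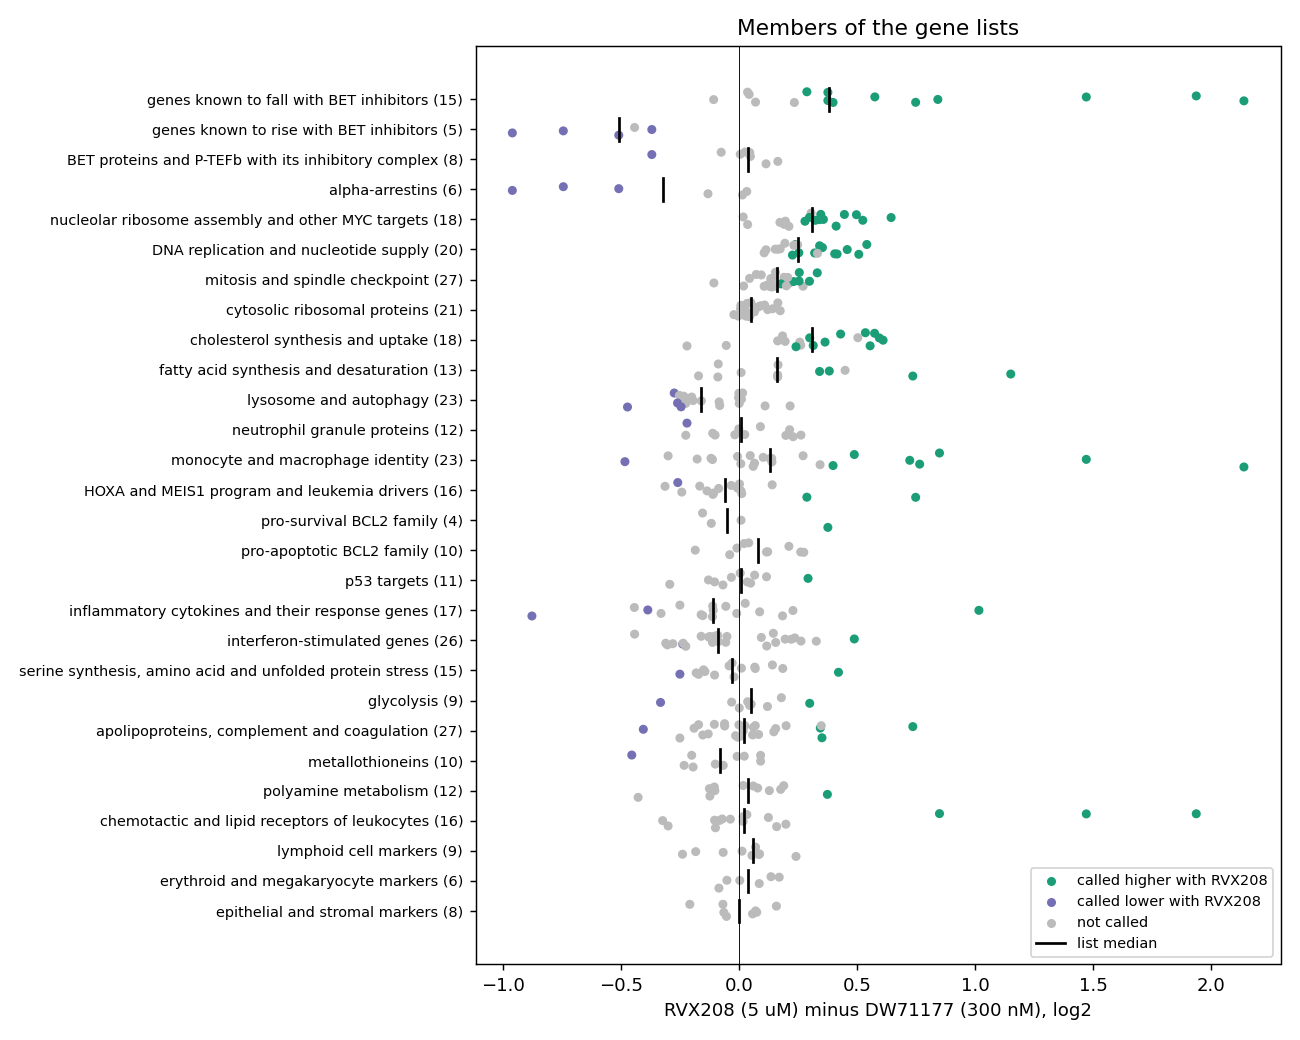
Each point is 1 measured member of a gene list, placed by its difference between RVX208 and DW71177 in log2 on the x axis, with lists in rows and the number measured in brackets. Green and violet points are members called higher and lower with RVX208, grey points are not called, and the black bar is the list median, which runs from -0.51 for genes listed as raised by BET inhibitors to 0.38 for genes listed as lowered.

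The nucleolar genes of ribosome assembly and other MYC targets had 11 of 18 measured members higher with RVX208 and 0 lower, against 2.7% and 1.78% of all genes, with a median of 0.31. A DMSO mean under 5 was found for 0 of the 18 but for 8067 of all genes, so these shares are not matched for level. All 18 differences were above 0, from 0.02 for ODC1, a polyamine synthesis gene, to 0.65 for the ribosome assembly factor NOP16. Without RVX208 replicate 2 the count was 7, and with the 6 arrays alone it was 3. Promoters of 13 of the 18 were found in RefSeq (GRCh38.p14, 250 bases before to 50 after the start, first listed start of each gene). Of these, 7 held CACGTG, the E-box that MYC and MAX bind among other factors, as did 9.03% of the promoters of 10736 measured genes. The list was composed to include MYC targets, so this excess says nothing about the compounds. Among the 7 called members with a promoter, 4 (57.1%) held the motif, against 53.8% of the 13. MYBBP1A, which encodes a nucleolar partner of MYB, is shown as a called member that holds the motif, in capitals, at chr17:4555335-4555634, minus strand:

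MYBBP1A promoter: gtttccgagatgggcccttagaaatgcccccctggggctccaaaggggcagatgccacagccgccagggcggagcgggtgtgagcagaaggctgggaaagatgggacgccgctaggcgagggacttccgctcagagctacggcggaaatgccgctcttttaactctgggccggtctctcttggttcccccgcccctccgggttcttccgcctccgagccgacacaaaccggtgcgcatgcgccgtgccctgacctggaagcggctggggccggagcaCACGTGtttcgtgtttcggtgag

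A motif match describes the letters of this window and is not evidence of binding. MYBBP1A read 7.46, 7.50 and 7.45 with RVX208, 7.03, 6.99 and 7.05 with DW71177, and 8.01, 7.96 and 7.97 with DMSO. Each compound's arrays were below DMSO, and the compounds did not overlap. The difference was 0.45 ± 0.061 (limma adjusted p = 0.00116). NOP16 read 6.96, 7.05 and 6.89 with RVX208 and 6.25, 6.37 and 6.34 with DW71177, a difference of 0.65 ± 0.091 (limma adjusted p = 0.00161). NOLC1, a nucleolar chaperone gene, differed by 0.50 ± 0.060, and the box C/D snoRNP gene NOP58 by 0.34 ± 0.051, both called.

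Genes of DNA replication and nucleotide supply were higher with RVX208 in 11 of 20 measured cases and lower in 0, against 2.7% and 1.78% of all genes, with a median of 0.25 and every difference above 0. The count was 1 with the 6 arrays alone and 17 when only genes with a mean of at least 5 were tested. The called members load or drive the replicative helicase (CDC6, CDT1, CDC45, GINS2, MCM10 and the helicase subunits MCM2 to MCM6) or process the lagging strand (FEN1). CDC6, which loads the helicase, read 7.50, 7.59 and 7.50 with RVX208, 6.95, 7.10 and 7.02 with DW71177, and 7.93, 7.79 and 7.93 with DMSO. These groups did not overlap, with RVX208 in the middle. The CDC6 difference was 0.51 ± 0.073 (limma adjusted p = 0.00178), and those of MCM5 and CDT1 were 0.34 ± 0.051 and 0.35 ± 0.061. The nucleotide supply genes RRM1, RRM2, TYMS and DUT differed by 0.11 to 0.23 and were not called.

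Of 27 measured genes of mitosis and the spindle checkpoint, 6 were higher with RVX208 and 0 lower, against 2.7% and 1.78% of all genes. The median was 0.16, with 26 differences above 0. BUB1, a spindle checkpoint kinase gene, read 8.58, 8.64 and 8.65 with RVX208 and 8.34, 8.38 and 8.38 with DW71177, a difference of 0.26 ± 0.050 (limma adjusted p = 0.0104). TTK, CCNA2, KIF2C, CCNB1 and TOP2A differed by 0.30, 0.26, 0.23, 0.33 and 0.18. The count of 6 fell to 1 without DW71177 replicate 1 or 3 or RVX208 replicate 2, to 2 without RVX208 replicate 3, to 3 without RVX208 replicate 1 and to 0 with the 6 arrays alone. Among the replication and mitosis genes with a promoter in RefSeq, 11 of 17 and 19 of 23 held CCAAT or its reverse ATTGG, the box that NF-Y binds, against 36% of all measured genes. Called members held the box in 6 of 9 and 4 of 5 promoters, much the same shares as the whole lists. GGCGGGAA, a form of the E2F site, was in 5 of 17 replication promoters and 1 of 23 mitosis promoters, against 4.2% of all. Other forms of the E2F site were neither searched nor marked, so these counts may miss sites. The promoter of MCM6, a helicase subunit called higher with RVX208, is shown for its CCAAT boxes, in capitals, at chr2:135876394-135876693, minus strand:

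MCM6 promoter: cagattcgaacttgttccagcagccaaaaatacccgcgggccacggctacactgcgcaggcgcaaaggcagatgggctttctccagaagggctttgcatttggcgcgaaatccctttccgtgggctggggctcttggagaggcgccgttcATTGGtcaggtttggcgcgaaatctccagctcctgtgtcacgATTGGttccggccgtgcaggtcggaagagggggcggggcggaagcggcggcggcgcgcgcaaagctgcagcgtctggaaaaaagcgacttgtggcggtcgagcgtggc

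MCM6 itself read 8.75, 8.74 and 8.70 with RVX208 and 8.50, 8.51 and 8.50 with DW71177, a difference of 0.23 ± 0.047 (limma adjusted p = 0.015) that lost its call without RVX208 replicate 1 or 2. Cytosolic ribosomal protein genes, which encode the ribosome itself rather than its assembly factors, had 0 of 21 members called in limma. Only 4.48% of all genes were called, so a count of 0 among 21 does not set this list apart. The differences of the 21 ran from -0.02 to 0.18, with a median of 0.05. RPS23 had the largest, 0.18 ± 0.083, with a 95% interval reaching 0.35.

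Sterol genes formed a further group that was higher with RVX208. Of 18 measured genes of cholesterol synthesis and uptake, 10 were higher and 0 lower, against 2.7% and 1.78% of all genes, with a median of 0.31. The median shift of the 18 from DMSO was -0.23 with RVX208 and -0.54 with DW71177. The called members span the pathway from HMGCS1 through IDI1, FDPS, MSMO1, NSDHL, EBP and DHCR7, and include the regulators INSIG1 and SREBF2 and the sterol-responsive gene TMEM97. Without RVX208 replicate 1 the count was 6, and with the 6 arrays alone it was 4. Of 16 promoters in RefSeq, 14 held CCAAT or ATTGG, against 36% of all measured genes, and 2 held TCACCCC, a core of the sterol regulatory element, against 5.81%. Among the called members the counts were 9 and 1 of 10 promoters, much the same shares. INSIG1 alone of the 16 held CACGTG (6.25%, against 9.03% of all measured genes). TMEM97 and INSIG1 are shown because their differences were among the largest of the list, with CCAAT boxes and, in INSIG1, an E-box in capitals (TMEM97 at chr17:28318950-28319249, INSIG1 at chr7:155297628-155297927, both plus strand):

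TMEM97 promoter: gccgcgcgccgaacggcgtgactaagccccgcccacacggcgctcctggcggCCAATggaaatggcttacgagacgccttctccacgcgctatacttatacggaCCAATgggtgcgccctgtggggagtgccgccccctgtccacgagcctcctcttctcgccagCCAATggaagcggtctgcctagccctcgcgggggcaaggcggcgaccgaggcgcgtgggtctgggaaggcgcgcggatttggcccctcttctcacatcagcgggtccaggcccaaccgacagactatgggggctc

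INSIG1 promoter: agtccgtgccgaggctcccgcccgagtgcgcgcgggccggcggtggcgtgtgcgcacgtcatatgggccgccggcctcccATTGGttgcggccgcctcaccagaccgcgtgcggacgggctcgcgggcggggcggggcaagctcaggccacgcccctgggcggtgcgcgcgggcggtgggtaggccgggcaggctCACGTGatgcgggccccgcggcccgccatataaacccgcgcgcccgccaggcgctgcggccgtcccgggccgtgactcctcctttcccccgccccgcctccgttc

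INSIG1, which retains the sterol sensor SCAP in the endoplasmic reticulum, read 9.60, 9.64 and 9.55 with RVX208, 9.03, 8.94 and 9.15 with DW71177, and 9.69, 9.75 and 9.76 with DMSO. The RVX208 arrays lay just under DMSO and well above DW71177. Its difference was 0.56 ± 0.066 (limma adjusted p = 0.000473). TMEM97 read 7.67, 7.78 and 7.78 with RVX208, 7.18, 7.15 and 7.10 with DW71177, and 8.19, 8.26 and 8.27 with DMSO, a difference of 0.60 ± 0.069 (limma adjusted p = 0.000435). Here RVX208 stood about midway between the other groups. MSMO1, a sterol demethylation enzyme gene, differed by 0.57 ± 0.076, and HMGCS1, the enzyme gene just before HMG-CoA reductase, by 0.54 ± 0.070. FDPS differed by 0.43 on its brighter feature and 0.13 on the dimmer one.

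Fatty acid synthesis followed with 4 of 13 measured genes higher and 0 lower, against 2.7% and 1.78% of all genes. The median was 0.16, and the same 4 were called with any of the 6 arrays left out. SCD, the desaturase that makes oleate, read 9.068, 9.103 and 9.001 with RVX208, 7.947, 7.906 and 7.863 with DW71177, and 9.698, 9.732 and 9.792 with DMSO. The 3 groups were each tightly placed and well apart. Its difference of 1.15 ± 0.060 was 2.22-fold (limma adjusted p = 1.21e-07), and a dimmer SCD feature differed by 0.80. FASN, the fatty acid synthase gene, differed by 0.74 ± 0.058, the desaturase gene FADS1 by 0.38 ± 0.073 and the acetyl-CoA carboxylase gene ACACA by 0.34 ± 0.063.

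Of the 12 largest positive differences, 3 were in genes listed for the monocyte and macrophage lineage (MPEG1, CCR2 and CCR1). Of 23 measured genes of monocyte and macrophage identity, 7 were higher with RVX208 and 1 lower, against 2.7% and 1.78% of all genes. The list had a median of 0.13 and a mean of 0.30. Levels come from whole cultures, so fewer cells of a state and less RNA per cell cannot be told apart. MPEG1, the macrophage pore protein gene, read 6.62 on all 3 RVX208 arrays, 4.53, 4.59 and 4.31 with DW71177, and 8.65, 8.65 and 8.75 with DMSO. The 3 deposited RVX208 values were identical, as for 59 genes in that group, and the sources used here give no reason. MPEG1 differed by 2.14 ± 0.10 (limma adjusted p = 1.02e-07), at least 4.41-fold, because the DW71177 mean was under 5, where signals may not be far above background.

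CCR2, the receptor for the monocyte chemokine CCL2, read 6.11, 6.19 and 5.96 with RVX208, 4.44, 4.74 and 4.66 with DW71177, and 8.20, 8.29 and 8.31 with DMSO. RVX208 was well below DMSO and DW71177 lower still, with no overlap. The difference was 1.47 ± 0.097 (limma adjusted p = 1.49e-06), its fold again a lower bound at 2.77. CCR1, a receptor for inflammatory chemokines, read 7.33, 7.33 and 7.40 with RVX208 against 6.49, 6.46 and 6.55 with DW71177, a difference of 0.85 ± 0.059. GPR183, an oxysterol receptor that guides leukocyte movement, read 7.29, 7.13 and 7.11 with RVX208, 4.95, 5.44 and 5.32 with DW71177, and 8.14, 8.14 and 8.29 with DMSO. Its difference of 1.94 ± 0.11 (limma adjusted p = 2.33e-07) was the second largest on the array. These 3 receptors were the called members of 16 measured chemotactic and lipid receptors, where 4.48% of all genes were called. The list's median was 0.02, and 11 of the 16 had a DMSO mean under 5. CXCR4, a bright receptor gene of the same list, differed by 0.20 ± 0.058 (limma adjusted p = 0.0753).

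CSF1R, the macrophage growth factor receptor gene, read 6.683, 6.650 and 6.739 with RVX208, 5.925, 5.957 and 6.016 with DW71177, and 7.001, 6.974 and 7.087 with DMSO. It differed by 0.72 ± 0.076 (limma adjusted p = 0.000146). LYZ, the lysozyme gene, differed by 0.40 ± 0.058, and by 0.67 on a dimmer feature. IRF8, a monocyte transcription factor gene, differed by 0.49 and the scavenger receptor gene CD36, dim in every group, by 0.77. CD86, a costimulatory ligand gene, was the exception, lower with RVX208. It read 5.77, 5.89 and 5.84 with RVX208, 6.24, 6.46 and 6.25 with DW71177, and 5.17, 5.18 and 5.22 with DMSO, so both compounds were above DMSO and DW71177 more so (difference -0.48 ± 0.077, limma adjusted p = 0.00371). CD14, at about 3 in every group, differed by 0.14 ± 0.12, and CD68 and SPI1 were bright and not called, at -0.18 and 0.13.

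Of 12 measured neutrophil granule genes, 8 of which had a DMSO mean under 5, AZU1 alone was called, where 4.48% of all genes were. AZU1, which encodes azurocidin, was lower with RVX208 (difference -0.22 ± 0.055, limma adjusted p = 0.0376), and lost its call whichever of the 6 arrays was left out. PRTN3, the bright proteinase 3 gene, differed by -0.10 ± 0.055 (95% interval -0.22 to 0.02).

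Others of the 12 largest positive differences were in secreted, adaptor and enzyme genes. IGF1, the growth factor gene, read 8.22, 8.19 and 8.27 with RVX208, 6.77, 6.75 and 6.69 with DW71177, and 8.88, 9.07 and 8.90 with DMSO. RVX208 lay nearer to DMSO than to DW71177, and the difference was 1.49 ± 0.078 (limma adjusted p = 1.21e-07), or 2.81-fold. SCIMP, an adaptor of Toll-like receptor signalling, also lay nearer to DMSO with RVX208, at 7.80, 7.83 and 7.77 with RVX208, 6.44, 6.57 and 6.41 with DW71177, and 8.16, 8.13 and 8.13 with DMSO. Its difference of 1.33 ± 0.056 had the smallest adjusted p of the named genes (limma, 3.27e-08). ENPP2, which encodes autotaxin, read 7.39 on each RVX208 array, 6.14, 6.33 and 6.17 with DW71177, and 8.80, 8.79 and 8.85 with DMSO, placing RVX208 slightly nearer to DW71177 than to DMSO.

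ENPP2 differed by 1.18 ± 0.060, DTX4, an E3 ligase gene of the deltex family, by 0.91 ± 0.087, TGM5, a transglutaminase gene, by 1.16 ± 0.13 and the osteoclast fusion gene OCSTAMP by 1.21 ± 0.19. The differences of TGM5 and OCSTAMP may understate the true folds, with DW71177 means under 5. CXCL8, the neutrophil chemokine gene, was dim throughout and read 4.02, 4.31 and 3.91 with RVX208 and 3.34, 2.95 and 2.90 with DW71177. Its difference of 1.02 ± 0.26 (limma adjusted p = 0.0383) kept its call in 1 of the 6 fits that left out an array.

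**Figure D3:**
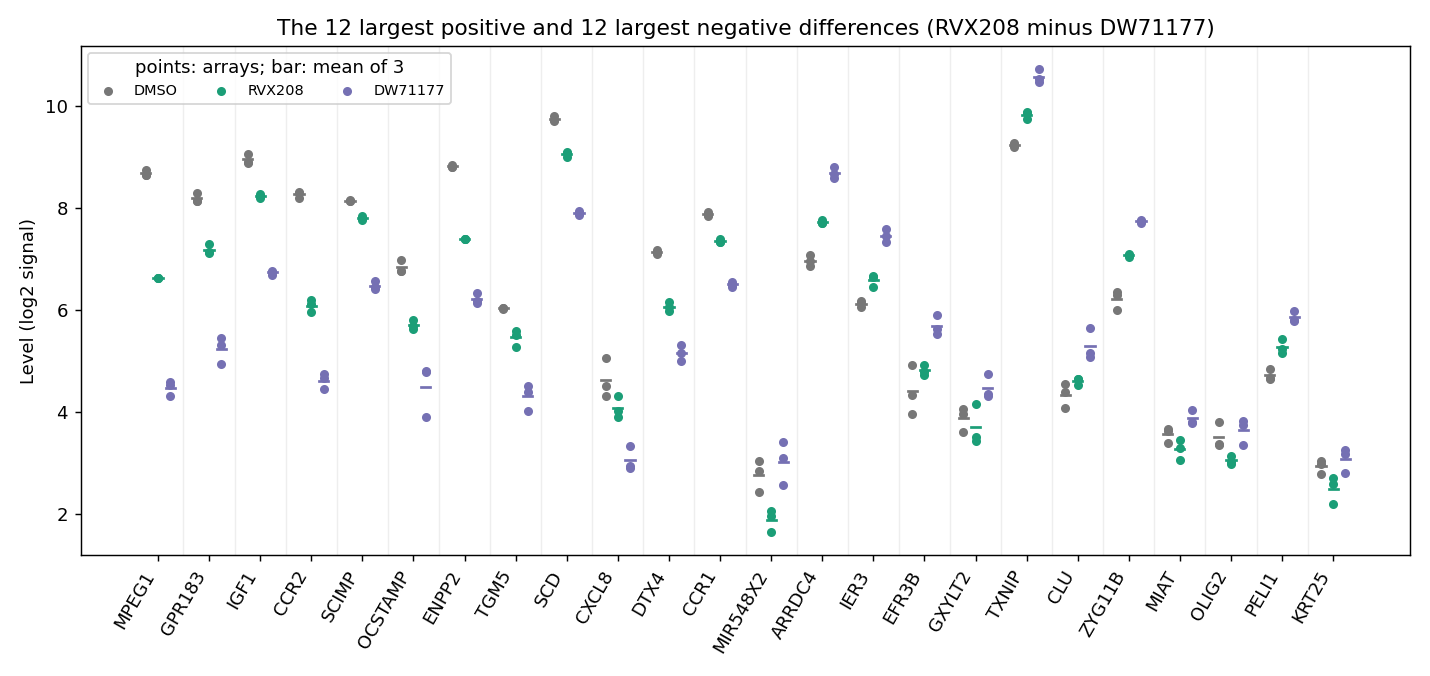
Points are the 3 arrays of each group (grey DMSO, green RVX208, violet DW71177) and bars their means, as log2 signal on the y axis, for the 12 largest positive differences (MPEG1 to CCR1) and the 12 largest negative ones (MIR548X2 to KRT25). From MPEG1 to CCR1 the groups descend from DMSO through RVX208 to DW71177, and ARRDC4, TXNIP, IER3 and ZYG11B ascend in that order.

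Alpha-arrestins, adaptor proteins that help remove membrane proteins such as glucose transporters, held differences in the other direction. Of 6 measured, 3 were lower with RVX208 and 0 higher, against 1.78% and 2.7% of all genes. ARRDC4 read 7.71, 7.76 and 7.71 with RVX208, 8.59, 8.79 and 8.66 with DW71177, and 6.87, 7.07 and 6.97 with DMSO. All 3 groups stood apart, with RVX208 a little nearer to DMSO, and the difference was -0.96 ± 0.069 (limma adjusted p = 3.15e-06), 1.94-fold lower. TXNIP, the thioredoxin-binding member, read 9.89, 9.86 and 9.74 with RVX208, 10.53, 10.72 and 10.47 with DW71177, and 9.23, 9.27 and 9.20 with DMSO. It differed by -0.74 ± 0.072 (limma adjusted p = 7.33e-05), and by -0.67 on a dimmer feature. ARRDC3 differed by -0.51 ± 0.12 (limma adjusted p = 0.0261), a call kept in 1 of the 6 fits that left out an array, without DW71177 replicate 3. ARRDC1, ARRDC2 and ARRDC5 differed by -0.13, 0.03 and 0.02 and were not called.

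IER3, an early response gene with a role in survival, read 6.66, 6.44 and 6.64 with RVX208, 7.59, 7.45 and 7.34 with DW71177, and 6.14, 6.17 and 6.06 with DMSO. RVX208 lay nearer to DMSO, and the difference was -0.88 ± 0.081 (limma adjusted p = 4.92e-05). The array holds 11 features for IER3, whose differences ran from -0.88 to -0.30. ZYG11B, a substrate receptor of a cullin ubiquitin ligase, read 7.04, 7.09 and 7.08 with RVX208, 7.71, 7.77 and 7.74 with DW71177, and 6.01, 6.30 and 6.34 with DMSO, a difference of -0.67 ± 0.078. PELI1, a ubiquitin ligase gene of innate immune signalling, differed by -0.59 ± 0.079 and stayed called in all 6 fits with an array left out.

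Others of the 12 largest negative differences rest on dim signals. EFR3B, GXYLT2, CLU, OLIG2, KRT25, MIAT and MIR548X2 each had a mean under 5 in at least 1 of the compounds. EFR3B and GXYLT2 lost their calls without DW71177 replicate 2 or RVX208 replicate 2 or 3, and CLU, OLIG2 and KRT25 in 4 or 5 of the 6 such fits. MIAT, a long noncoding RNA, differed by -0.60 on the feature used and by -0.04 on its other feature. MIR548X2, the single gene at least 2-fold lower, read 2.06, 1.65 and 1.97 with RVX208 and 3.10, 2.57 and 3.41 with DW71177, levels at which a fold has little meaning.

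Lysosome and autophagy genes had 4 of 23 members lower with RVX208 and 0 higher, against 1.78% and 2.7% of all genes, with a median of -0.16. PSAP, the precursor of the sphingolipid activator proteins, read 8.73, 8.82 and 8.79 with RVX208, 9.19, 9.21 and 9.35 with DW71177, and 8.17, 8.11 and 8.04 with DMSO. Its 3 groups were well separated (difference -0.47 ± 0.062, limma adjusted p = 0.00105). The protease gene CTSB and the autophagy genes GABARAPL2 and ATG9A differed by -0.27, -0.26 and -0.24. The count of 4 fell to 1 without RVX208 replicate 1 or 2 to 2 without any other of the 6 arrays, and to 0 with the 6 arrays alone.

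Genes of the leukemic program were mixed. Of 16 measured, KIT and CDK6 were higher with RVX208 and LMO2 lower, against 2.7% and 1.78% of all genes. The median was -0.06, and the count of 3 fell to 1 without DW71177 replicate 1 or RVX208 replicate 2 or 3. KIT, the stem cell factor receptor gene, read 5.27, 5.09 and 5.08 with RVX208, 4.43, 4.46 and 4.31 with DW71177, and 5.28, 5.71 and 5.53 with DMSO (difference 0.75 ± 0.12, limma adjusted p = 0.00375). FLT3, the receptor gene mutated in this line, read 9.77, 9.87 and 9.80 with RVX208, 9.80, 9.81 and 9.83 with DW71177, and 9.86, 9.73 and 9.80 with DMSO. Its groups overlapped, and the 95% interval of the difference was -0.12 to 0.13. MYB differed by -0.11 ± 0.065 (-0.25 to 0.03). MEIS1, the homeobox partner gene, read 6.903, 6.944 and 7.005 with RVX208 and 7.284, 7.412 and 7.095 with DW71177, and missed the threshold at -0.31 ± 0.083 (limma adjusted p = 0.0502).

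With 4.48% of all genes called, BCL2 was the single one of 4 measured pro-survival genes of its family that was called. It read 9.81, 9.80 and 9.78 with RVX208, 9.44, 9.44 and 9.38 with DW71177, and 10.28, 10.32 and 10.30 with DMSO. The groups were narrow and apart, with a difference of 0.38 ± 0.047 (limma adjusted p = 0.000604). MCL1 differed by -0.15 ± 0.073 (95% interval -0.31 to 0.00), and the list median of -0.05 had the opposite sign to its mean of 0.03. Of 10 pro-apoptotic members 0 were called in limma, with differences of -0.18 for BCL2L11 to 0.27 for BIK and a median of 0.08. At a share of 4.48% over all genes, a count of 0 among 10 does not set this list apart. Of 11 p53 targets, AEN, an apoptosis-linked nuclease gene, was higher by 0.29 ± 0.071 (limma adjusted p = 0.0331), a call kept only without DW71177 replicate 3, and the list median of 0.01 and mean of -0.01 differed in sign.

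Inflammatory cytokines and their response genes had 3 of 17 members called, CXCL8 higher and IER3 and ICAM1 lower, against 4.48% of all genes called. The median was -0.11, and 9 of the 17 had a DMSO mean under 5. ICAM1, a leukocyte adhesion ligand gene, read 7.31, 7.30 and 7.37 with RVX208, 7.71, 7.69 and 7.74 with DW71177, and 7.06, 7.20 and 7.22 with DMSO (difference -0.39 ± 0.066, limma adjusted p = 0.00521). TNF and the chemokine gene CCL5 differed by -0.44 and -0.33 and were not called. Of 26 interferon-stimulated genes, 14 of them dim in DMSO, TRIM22 was higher by 0.49 ± 0.084 and IRF7, the interferon regulatory factor gene, lower, at -0.24 ± 0.063. The median was -0.09, and IRF7 lost its call whichever array was left out.

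Metabolic and stress lists held few called genes each, where 4.48% of all genes were called. In amino acid and unfolded protein stress, the serine synthesis gene PSAT1 was higher (0.42 ± 0.062, limma adjusted p = 0.00213) and XBP1, a transcription factor of the unfolded protein response, lower (-0.25 ± 0.060), 2 of 15 measured. XBP1 lost its call with any 1 array left out. Among 9 glycolysis genes the hexokinase genes differed in opposite directions. HK1 was lower with RVX208 (-0.33 ± 0.057, limma adjusted p = 0.00516) and HK2 higher (0.30 ± 0.071, limma adjusted p = 0.0305), the HK2 call being kept only without RVX208 replicate 3. Of 10 metallothioneins, MT2A was lower with RVX208, at 8.70, 8.71 and 8.72 against 9.31, 9.19 and 8.99 with DW71177 and 8.38, 8.41 and 8.42 with DMSO (difference -0.45 ± 0.075, limma adjusted p = 0.00423). Of 12 polyamine genes, the spermidine synthase gene SRM was higher (0.38 ± 0.058), and SAT1, the polyamine acetyltransferase gene, differed by -0.43 ± 0.13 (limma adjusted p = 0.0902).

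RVX208 was developed for its effect on apolipoprotein A1, and the 27 measured apolipoprotein, complement and coagulation genes were examined for that reason. Of these, 23 had a DMSO mean under 5. THBD, CFP and CFI were higher with RVX208 and CFD lower, against 2.7% and 1.78% of all genes, and the median was 0.02. APOA1 itself was dim, at 4.46, 4.61 and 4.27 with RVX208, 5.21, 4.67 and 4.21 with DW71177, and 4.78, 4.34 and 4.60 with DMSO. All 3 groups overlapped, and its interval of -0.66 to 0.16 leaves room for a sizeable difference. THBD, the thrombomodulin gene, read 7.06, 6.98 and 6.90 with RVX208, 6.11, 6.33 and 6.29 with DW71177, and 7.62, 7.80 and 7.82 with DMSO (difference 0.74 ± 0.088, limma adjusted p = 0.000486). CFD, the gene of complement factor D, read 10.24, 10.19 and 10.16 with RVX208, 10.54, 10.60 and 10.66 with DW71177, and 9.81, 9.92 and 9.97 with DMSO (difference -0.40 ± 0.062, limma adjusted p = 0.00275). CFP lost its call without DW71177 replicate 2 or RVX208 replicate 1, and CFI, at about 2 in every group, in 3 of the 6 such fits.

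A few called genes departed from the usual order. Of the 9 for which RVX208 lay farther from DMSO, HIC1, a transcriptional repressor gene, read 6.81, 6.81 and 6.58 with RVX208, 6.24, 6.32 and 6.25 with DW71177, and 5.82, 5.84 and 5.88 with DMSO. Both compounds were above DMSO, and RVX208 was the higher by 0.47 ± 0.094 (limma adjusted p = 0.0122), a call lost without RVX208 replicate 1 or 2. MYOF, a membrane repair gene of the ferlin family, read 6.15, 6.25 and 6.12 with RVX208, 5.77, 5.88 and 5.85 with DW71177, and 5.58, 5.57 and 5.61 with DMSO. It differed by 0.34 ± 0.055 (limma adjusted p = 0.00375) and stayed called with each array left out. N4BP3 stayed called likewise, at 4.25, 4.32 and 4.38 with RVX208, 4.97, 4.68 and 4.82 with DW71177, and 4.82, 4.96 and 4.86 with DMSO (difference -0.51 ± 0.081), so that only RVX208 stood apart from DMSO on a dim gene. PLXND1, OLFML2B and EBI3 lost their calls with any 1 array left out, and LCE2D and MIRLET7A2 with any 1 of 5.

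Of the 99 called genes with the compounds on opposite sides of DMSO, 8 had both means at least 0.2 from it, and 7 of those 8 were under 5 in all 3 groups. The exception, MZF1, a myeloid zinc finger gene, read 5.24, 5.12 and 5.04 with RVX208, 5.69, 5.61 and 5.72 with DW71177, and 5.22, 5.41 and 5.37 with DMSO. The RVX208 and DMSO arrays overlapped, whereas the compounds did not (difference -0.54 ± 0.072, limma adjusted p = 0.00112). TMSB15A, a thymosin gene at 2.19 or less on every array, KDM7A-DT, HGFAC, DPY19L2 and MIR554 were the others besides MIAT and MIR548X2, with differences of 0.51 to 0.59 in size. HGFAC, DPY19L2 and MIR554 lost their calls in 4 or 5 of the 6 fits with an array left out.

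**Figure D4:**
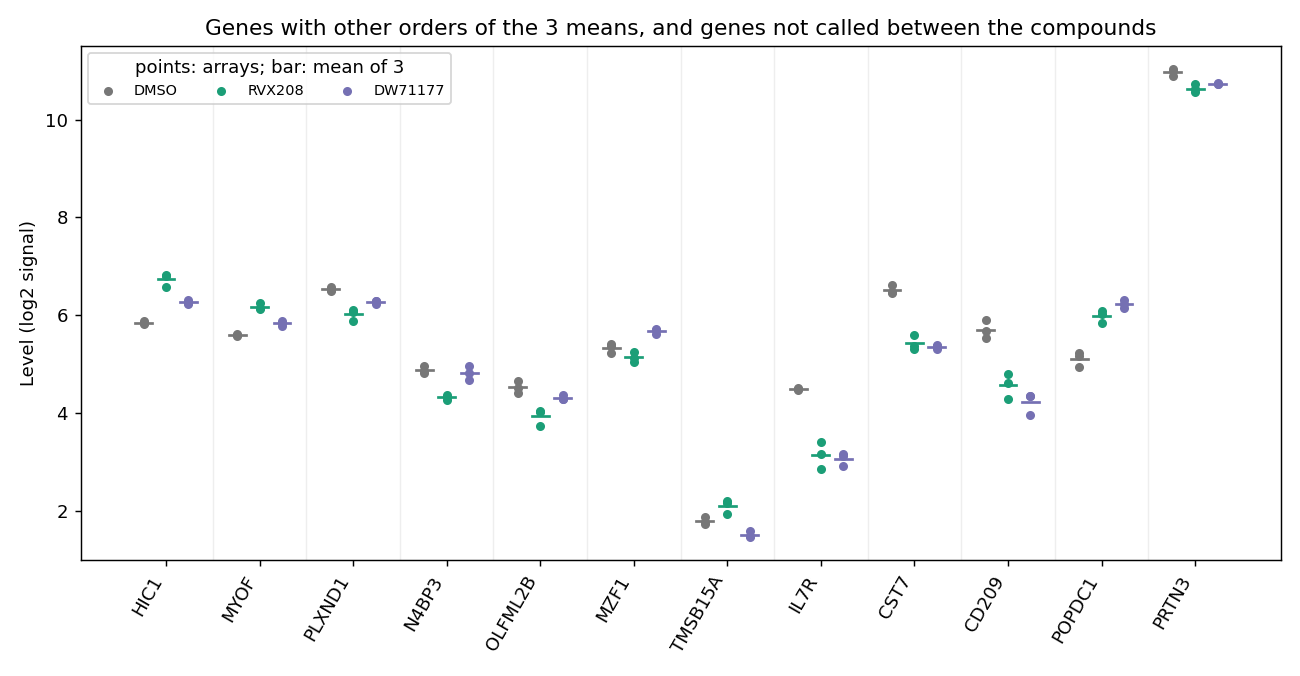
Points are the 3 arrays of each group (grey DMSO, green RVX208, violet DW71177) and bars their means, as log2 signal on the y axis, for genes in which RVX208 lay farther from DMSO (HIC1 to OLFML2B), genes on opposite sides of DMSO (MZF1 and TMSB15A) and genes not called between the compounds (IL7R to PRTN3). For IL7R and CST7 the RVX208 and DW71177 arrays overlap and lie below DMSO, and for HIC1 RVX208 lies above DW71177.

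Both compounds were also far from DMSO in genes that were not called between them. In 129 uncalled genes both means were at least 0.5 from DMSO on the same side, 71 below and 58 above, and 105 of these had a 95% interval inside 1.5-fold. IL7R, the interleukin-7 receptor gene, read 2.85, 3.40 and 3.15 with RVX208, 3.11, 3.16 and 2.92 with DW71177, and 4.50, 4.48 and 4.50 with DMSO. CST7, which encodes the protease inhibitor cystatin F, read 5.31, 5.37 and 5.59 with RVX208, 5.39, 5.31 and 5.37 with DW71177, and 6.62, 6.46 and 6.47 with DMSO. The compounds overlapped in both genes, with differences of 0.07 (95% interval -0.19 to 0.34 for IL7R and -0.14 to 0.27 for CST7). POPDC1, a membrane protein gene above DMSO with each compound, differed by -0.25 ± 0.083 (-0.42 to -0.07, limma adjusted p = 0.123). CD209, LCT-AS1, WAKMAR2, LINC00977 and SIGLEC6 were the others with the largest shared shifts, and their differences of 0.06 to 0.55 were not called. IL7R, CD209, LCT-AS1, WAKMAR2 and LINC00977 had means under 5 with both compounds, where an interval does not bound the true fold. A second WAKMAR2 feature did not share the fall, at 3.21 with RVX208, 3.26 with DW71177 and 3.04 with DMSO.

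Markers of other cell types were mostly dim and were close between the compounds. Of 9 measured lymphoid, 6 erythroid and megakaryocyte and 8 epithelial and stromal genes, 0 were called in limma. Only 4.48% of all genes were called, so counts of 0 in lists this short do not set them apart. A DMSO mean under 5 was found for 6, 3 and 6 of the listed genes. The summed signal of the lymphoid markers was 8.48 to 8.53 with RVX208 and 8.35 to 8.48 with DW71177 on the log2 scale, led by CD4. The erythroid and megakaryocyte sum was 7.57 to 7.68 and 7.57 to 7.63, and the epithelial and stromal sum, led by KRT18, was 8.09 to 8.31 and 8.20 to 8.28. TIPARP and NFE2L2, the 2 measured of the aryl hydrocarbon receptor list, differed by -0.19 and -0.03 and were not called.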

How the data were processed

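The deposited table holds log2 signals of 44629 features, a unit inferred from the values; per the labels' protocols, biotin-labelled cDNA from total RNA was hybridised to Affymetrix whole-transcript arrays. For the authors' background correction, normalization, software and genome build, the entry is "not given in the sources used here". Array medians are nearly equal, so differences are relative to the whole array. Arrays give no counting depth, and their number limits the precision. The labels describe triplicate wells and not separate cultures, so a p-value reflects only how far these arrays scatter, and that scatter may be technical.

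The platform annotation named 1 gene for 15835 features and none for 28794, and all 15835 matched RefSeq. Where a gene had several features (651 genes), the brightest by its mean over all 15 arrays stood for the gene, leaving 14812 genes with no level filter. Means under 5, a level chosen with values known, were treated as dim, and folds from them as estimates that may understate the true fold or have little meaning.

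Groups came from sample titles. Limma 3.58.1 in R 4.3.3 fitted the 5 group means on all 15 arrays, with two-sided p-values adjusted by Benjamini-Hochberg over 14812 genes, and the script was tested on simulated data. Named genes were the 12 largest called differences each way without overlap, up to 8 each of 3 other orders of the means, a fixed set of BET-responsive and leukemia genes, and up to 4 genes per list by smallest p. The comparison, its genes and the 29 lists were chosen with earlier results of these data known, and lists share members. Lists were described by counts and medians, with no set test. CD180, FOSL1, E2F1, CD86, CD36, IRF8, MCM6, FDPS, further called list members and all genes of the closing section were named after their values were seen. Motifs were searched on both strands of RefSeq promoters (GRCh38.p14). Alternatives were a replicate block, the 6 arrays alone, other variance models, array weights, other scalings, brighter genes alone, averaged features and each array left out.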

Additional observations from a re-analysis of the deposited data

How the results depend on the processing

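The number of called genes depended on how the spread was estimated and on how many genes were tested. Under the alternatives run, 0 of the 117 named genes with a call changed sign. Those genes were picked for their calls and the same arrays were refitted, so a change was unlikely from the start. Of the 64 named genes without a call, 11 changed sign in at least 1 alternative, IL7R, CST7, BRD3, FLT3 and APOA1 among them. With the 6 arrays alone, which leave fewer degrees of freedom, 75 genes were called, 65 higher and 10 lower with RVX208, and 71 of them were among the 663 (2136 genes had an unadjusted p under 0.05). A variance trend gave 1098 (636 higher, 462 lower), and testing only the genes with a mean of at least 5 gave 1219 (702 and 517). Median centring gave 526 in all and 162 lower, so the share of higher calls rose, with 364 higher. Leaving out 1 array at a time gave 344 to 458 in all, 220 to 340 higher and 110 to 173 lower. Same-numbered deviations of RVX208 and DW71177 arrays from their group means correlated at 0.009, 0.095 and -0.005, and other-numbered ones at -0.095 to 0.083. With 3 arrays per group these values cannot decide whether replicate numbers pair the samples. With the replicate block 533 genes were called, 351 higher and 182 lower. Robust variance, array weights, quantile normalization and averaged features gave 633 to 725. The count of 555 called genes with RVX208 nearer to DMSO was 532 among brighter genes and 549 to 558 with an array left out. Of the 117 named genes with a call, 73 lost their call with the 6 arrays alone and 19 with the replicate block. The medians of the neutrophil, pro-survival BCL2, p53, amino acid stress, complement, chemotactic receptor, lymphoid, erythroid and epithelial lists, all within 0.06 of 0, changed sign in 1 to 4 settings. Signals near background and 3 arrays per group limit what can be detected.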

Other observations

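A few transcripts of microRNA loci and long noncoding RNAs, named here after their values were seen, were called between the compounds, in smaller shares than the 4.48% of all genes. Of 1022 measured microRNA loci 11 were called (1.08%), 3 higher with RVX208 and 8 lower, and 4 of the 11 had all 3 group means at least 5, as did 138 of all loci. The array reads RNA of the locus, not the mature microRNA. Mature sequences were found in RefSeq for 9 of the 11 loci, and those of the best known myeloid ones are given with the seed, bases 2 to 8, in capitals; no pair of them shares a seed:
miR-223-3p: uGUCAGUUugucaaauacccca
miR-155-5p: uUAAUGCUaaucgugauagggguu
miR-221-3p: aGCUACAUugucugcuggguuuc
MIR223, a locus active in granulocytes and monocytes, read 6.61, 6.55 and 6.55 with RVX208, 6.18, 6.26 and 6.04 with DW71177, and 7.04, 6.76 and 6.82 with DMSO, a difference of 0.41 ± 0.075 (limma adjusted p = 0.00789). MIR155, the locus of an inflammatory microRNA, read 5.67, 5.71 and 5.69 with RVX208, 5.96, 6.11 and 5.95 with DW71177, and 5.75, 5.80 and 5.61 with DMSO. Its RVX208 arrays overlapped DMSO, and its difference of -0.32 ± 0.069 (limma adjusted p = 0.0184) lost its call without DW71177 replicate 2 or any of the RVX208 arrays. MIR221 was dimmer and differed by -0.43 ± 0.11, a call kept only without RVX208 replicate 1. MIR3143 read 7.30, 7.16 and 7.36 with RVX208 against 7.86, 7.69 and 7.73 with DW71177. Among 1387 long noncoding RNAs 13 were called (0.937%), 8 higher and 5 lower. SNHG16, a small nucleolar RNA host gene, differed by 0.53 ± 0.070, and VPS9D1-AS1 and LINC00996 each by 0.72. VPS9D1-AS1 shares its locus with VPS9D1, and whether strands were read apart is not given in the sources used here.

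Several protein families, also chosen after the values were seen and given with no test, held called members in 1 direction. Of the mitochondrial import genes, 4 of 10 TOMM and 5 of 13 TIMM members were higher with RVX208 and 0 lower, against 2.7% of all genes. The import pore gene TOMM40 read 9.65, 9.65 and 9.74 with RVX208, 9.25, 9.23 and 9.23 with DW71177, and 9.85, 9.88 and 9.90 with DMSO. Of 10 subunits of the RNA exosome, the complex that trims and degrades RNA, 4 were higher, with EXOSC5 at 0.62 ± 0.076. Mitochondrial ribosomal protein genes had 8 of 48 (large subunit) and 3 of 25 (small subunit) higher, and nucleoporins 5 of 22. Among lysine demethylases 3 of 18 were lower (KDM3A, KDM5B and KDM7A) and 0 higher, against 1.78% and 2.7% of all genes. KDM7A had a mean under 5 in all 3 groups and lost its call whichever of the 6 arrays was left out. ZNF zinc finger genes had 7 higher and 4 lower of 467, with a median of 0.00.

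Some single genes of known function stood out by their order. CD180, a Toll-like receptor relative of B and myeloid cells, read 10.71, 10.64 and 10.65 with RVX208, 10.10, 10.09 and 10.08 with DW71177, and 10.63, 10.66 and 10.71 with DMSO, so that RVX208 overlapped DMSO and only DW71177 stood below it (difference 0.58 ± 0.053, limma adjusted p = 4.92e-05). IRF4, a lymphoid and myeloid transcription factor gene, read 8.08, 8.07 and 7.89 with RVX208, 7.38, 7.44 and 7.54 with DW71177, and 8.16, 8.25 and 8.27 with DMSO. IL1RAP, an interleukin-1 receptor subunit gene, read 5.53, 5.71 and 5.58 with RVX208, 6.15, 6.19 and 6.09 with DW71177, and 5.37, 5.40 and 5.61 with DMSO, overlapping DMSO with RVX208 and above it with DW71177 (difference -0.53 ± 0.085, limma adjusted p = 0.00368). CDC25A, a cell-cycle phosphatase gene, differed by 0.65 ± 0.072 and the myeloid gene PLAC8 by 0.59 ± 0.057, each with RVX208 between DMSO and DW71177.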
